A study of Danio rerio with 28 samples.

Results

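Hox genes encode homeodomain transcription factors that stand in clusters along the chromosome, and paralogue numbers run from the end of the cluster that acts at the front of the body to the end that acts at the tail. Their order in a cluster matches the order of their expression domains in the hindbrain, the spinal cord and the mesoderm, where they give cells their position along the body axis. Zebrafish keep several clusters that arose by an extra genome duplication, so that many genes have an a copy and a b copy. Here the Hox genes are the probes of the array whose RefSeq accession the zebrafish reference (GRCz12tu) names as a hoxa, hoxb, hoxc or hoxd gene. They were 66 of 43603 probes and stood for 36 of the 49 Hox genes of the reference, whereas 13 had no probe that could be named in this way.

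The genes came from all 7 clusters: 7 of 7 genes of hoxaa, 5 of 5 of hoxab, 9 of 11 of hoxba, 2 of 4 of hoxbb, 8 of 11 of hoxca, 3 of 4 of hoxcb and 2 of 7 of hoxda. Paralogue group 7, with hoxb7a as its gene in the reference, had no named probe. Where several probes read a gene, its main probe is the brightest on average, and values are those of that probe unless others are named. The annotated extents of hoxa3a, hoxb3a and hoxb1b overlap neighbouring Hox genes in the reference, and which transcripts a probe there reads was not tested.

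The study asked how 17β-estradiol (E2), an estrogen, changes gene expression in whole zebrafish embryos over early development. Pools of 30 embryos of the wild-type strain DZ were kept in 1 µM E2 in 0.1% DMSO, or in 0.1% DMSO alone, from 3 hours post fertilization (hpf), and were collected at 24, 48, 72 and 104 hpf (1, 2, 3 and 4 days post fertilization, dpf). Each treatment had 3 pools at the first 2 stages and 4 pools at 3 dpf and 4 dpf, so the 8 groups comprised 28 arrays with a single dye. Replicates came from different batches of embryos. E2 was given in the medium, and a pool holds all tissues of the embryos. In such bulk RNA, fewer cells of a type and less RNA per cell cannot be told apart.

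Values are log2 signals after quantile normalization, and a change is a difference of log2 signals with its standard error (SE), fitted with limma to all 28 arrays with the replicate number as a block. Adjusted p-values are those of limma after Benjamini-Hochberg adjustment over all 43603 probes, with 0.05 as the limit. The study's own thresholds are an unadjusted p of at most 0.01 with a change of at least 1.4-fold. The share of spots well above background, by the test of the scanner software, ranged from 58.1% to 96.1% over the arrays (median 71.0%). The highest share was that of replicate 1 of the E2 group at 3 dpf, an array that stands apart, and the next highest was 73.8%. The main probes of 30 of the 36 Hox genes were well above background on all 28 arrays.

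Most Hox genes fell as the DMSO embryos developed. Between 1 and 4 dpf, 29 of 36 genes were lower and 2 were higher at an adjusted p under 0.05, against 27.1% and 20% of all probes. Here and below, such shares cover all probes, dim ones included, whereas each Hox gene is read by its brightest probe. The median SE of this change was 0.18 for the Hox genes and 0.30 for all probes. Whether this difference in precision raised the Hox counts was not tested. The median change of the Hox genes was -1.26, with a range from -3.87 to 0.91, and that of all probes was -0.16. With hoxb9a, which was at background at 4 dpf, set at its bound the median of the Hox genes was -1.13. A value below 0 was found for 33 of 36 Hox genes and 59.3% of all probes. All 4 arrays at 4 dpf lay below all 3 arrays at 1 dpf for 27 genes, an arrangement found for 28.1% of all probes. By the test for any difference between the 4 stages 30 of 36 Hox genes passed, against 47.7% of all probes.

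**Figure D1:**
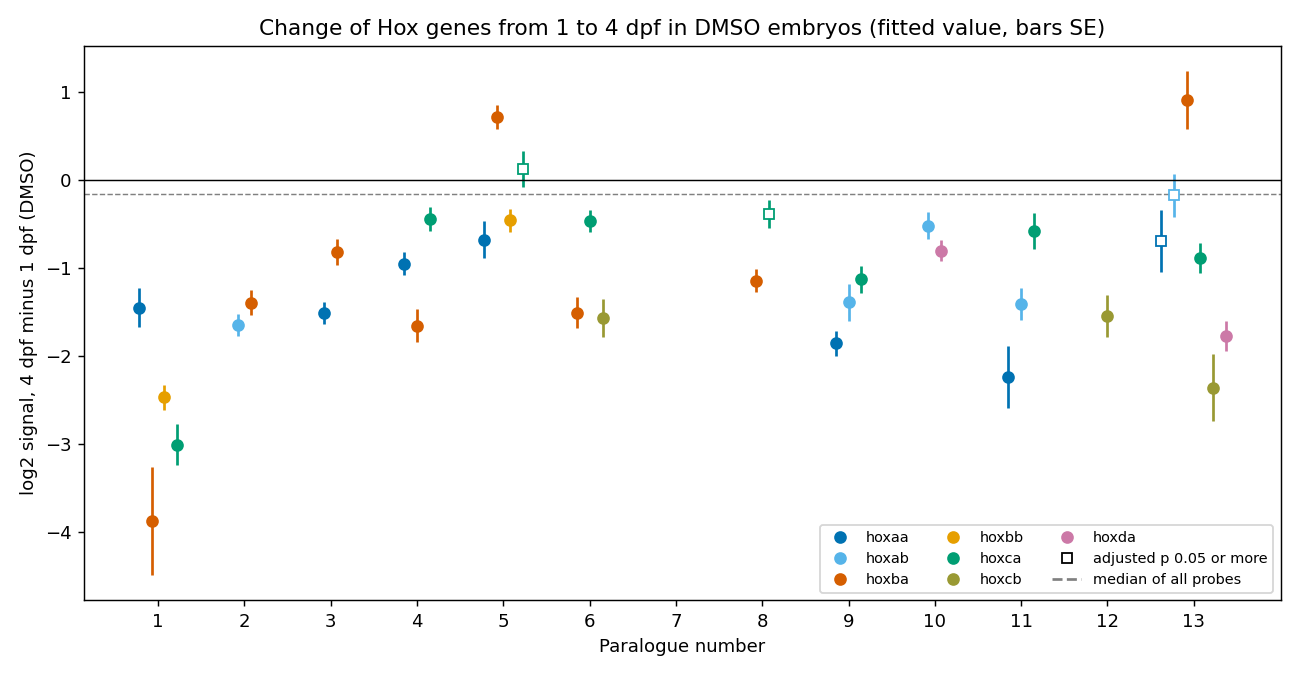
Fitted log2 change from 1 to 4 dpf in DMSO embryos for 35 Hox genes (hoxb9a, at background at 4 dpf, is left out), placed by paralogue number and coloured by cluster, with SE as bars. Open squares have an adjusted p of 0.05 or more, and the dashed line is the median of all probes (-0.16). The 4 genes of paralogue group 1 lie between -3.87 and -1.45. Above 0 lie hoxb5a, hoxb13a and, as an open square, hoxc5a.

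The fall was spread over the 3 intervals, which were not tested against each other and differ in length and in number of arrays. From 1 to 2 dpf 8 genes fell and 3 rose (12.8% and 12.3% of all probes), with a median Hox change of -0.23. From 2 to 3 dpf 14 fell and 1 rose (7.29% and 8.97% of all probes), with a median of -0.47. From 3 to 4 dpf 17 fell and 0 rose (6.14% and 4.69% of all probes), with a median of -0.47. In the single intervals 28, 29 and 34 of 36 Hox genes had a fitted value below 0, beside 59.7%, 51% and 57.7% of all probes. A fitted value below 0 in all 3 intervals was found for 24 genes, and that share of all probes was not computed. These counts moved with single arrays: the number that fell was 5 from 1 to 2 dpf without DMSO replicate 1 of 2 dpf, 9 from 2 to 3 dpf without DMSO replicate 3 of 2 dpf or DMSO replicate 1 of 3 dpf, and 11 from 3 to 4 dpf without DMSO replicate 2 of 3 dpf or of 4 dpf. Without the replicate block 11 genes fell from 3 to 4 dpf and 0 rose from 2 to 3 dpf.

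**Figure D2:**
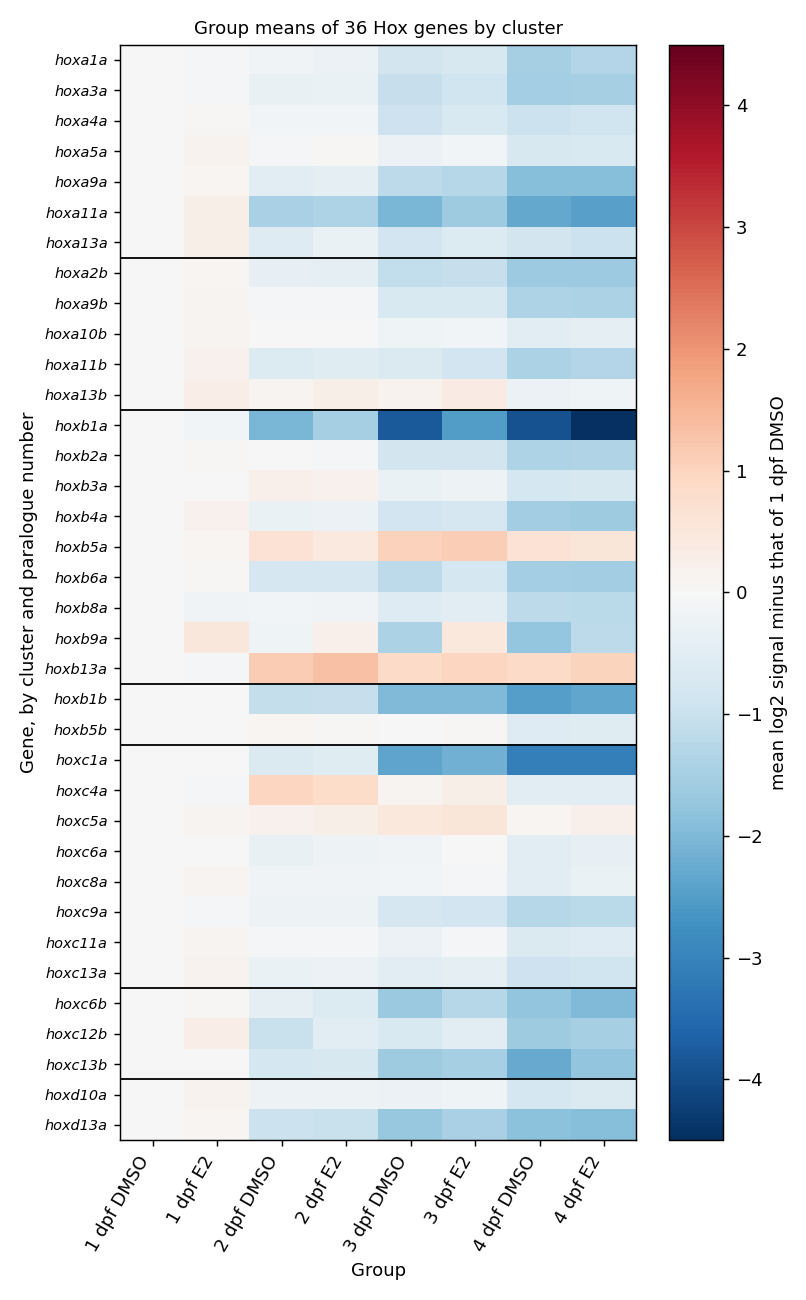
Mean log2 signal of each of 36 Hox genes in the 8 groups, minus that of the 1 dpf DMSO group, with genes in rows by cluster and paralogue number and lines between clusters. Blue is lower and red is higher than at 1 dpf. Most rows turn blue from left to right. After 1 dpf hoxb5a and hoxb13a are red rows, and hoxc5a also stays above its 1 dpf DMSO mean, by less.

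Paralogue group 1 acts in the hindbrain, where hoxb1a is known for the identity of rhombomere 4, and hoxb1b is active earlier, in the gastrula. All 4 measured members fell (27.1% of all probes), with a median change of -2.73, and 3 of them had the lowest values of all 36 genes. For hoxb1b the 1 dpf DMSO arrays gave log2 signals of 10.93, 10.59 and 10.77, the 2 dpf arrays 9.63, 9.63 and 9.81, the 3 dpf arrays 8.84, 8.80, 8.80 and 8.71, and the 4 dpf arrays 8.45, 8.07, 8.48 and 8.08. No stage overlapped the stage before it. The change of hoxb1b from 1 to 4 dpf was -2.47 (SE 0.14, adjusted p 2.4e-11 in limma), and its other probe gave -2.80.

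On the DMSO arrays hoxc1a at 2 dpf already lay below all its values at 1 dpf. At 1 dpf the DMSO arrays gave 9.98, 10.04 and 10.09. At 2 dpf they gave 9.44, 9.11 and 9.64. The 3 dpf arrays gave 7.91, 7.87, 7.37 and 7.56, followed by 7.43, 6.47, 6.95 and 6.95 at 4 dpf. Values at 3 dpf lay below all those at 2 dpf, whereas 3 and 4 dpf overlapped. The largest step of hoxc1a was from 2 to 3 dpf (-1.63), its change from 1 to 4 dpf was -3.00 (SE 0.24, adjusted p 2.4e-09 in limma), and its other probe gave -3.28.

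For hoxb1a the 1 dpf DMSO arrays gave 7.11, 6.41 and 6.96, the 2 dpf arrays 4.93, 4.37 and 5.02, the 3 dpf arrays 2.74, 2.90, 3.30 and 3.20, and the 4 dpf arrays 2.38, 2.95, 3.19 and 3.15. Its main drop came by 3 dpf, and the last pair of stages overlapped. The change from 1 to 4 dpf was -3.87 (SE 0.61, adjusted p 2.41e-05 in limma). The probe of hoxb1a was dim: 2 of 4 DMSO arrays at 3 dpf and 3 of 4 at 4 dpf were well above background, and its change was -1.41 after a normexp background correction with an offset. A further probe, which only the study's own list names as hoxb1a and which is not counted here, had signals of 8.12, 7.73 and 7.72 at 1 dpf and of 3.69, 3.70, 4.17 and 4.48 at 4 dpf, and was well above background on all of these arrays. The fourth member, hoxa1a, fell by 1.45 (SE 0.22), from 5.87, 6.16 and 6.06 at 1 dpf to 4.99, 4.33, 4.34 and 4.43 at 4 dpf.

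**Figure D3:**
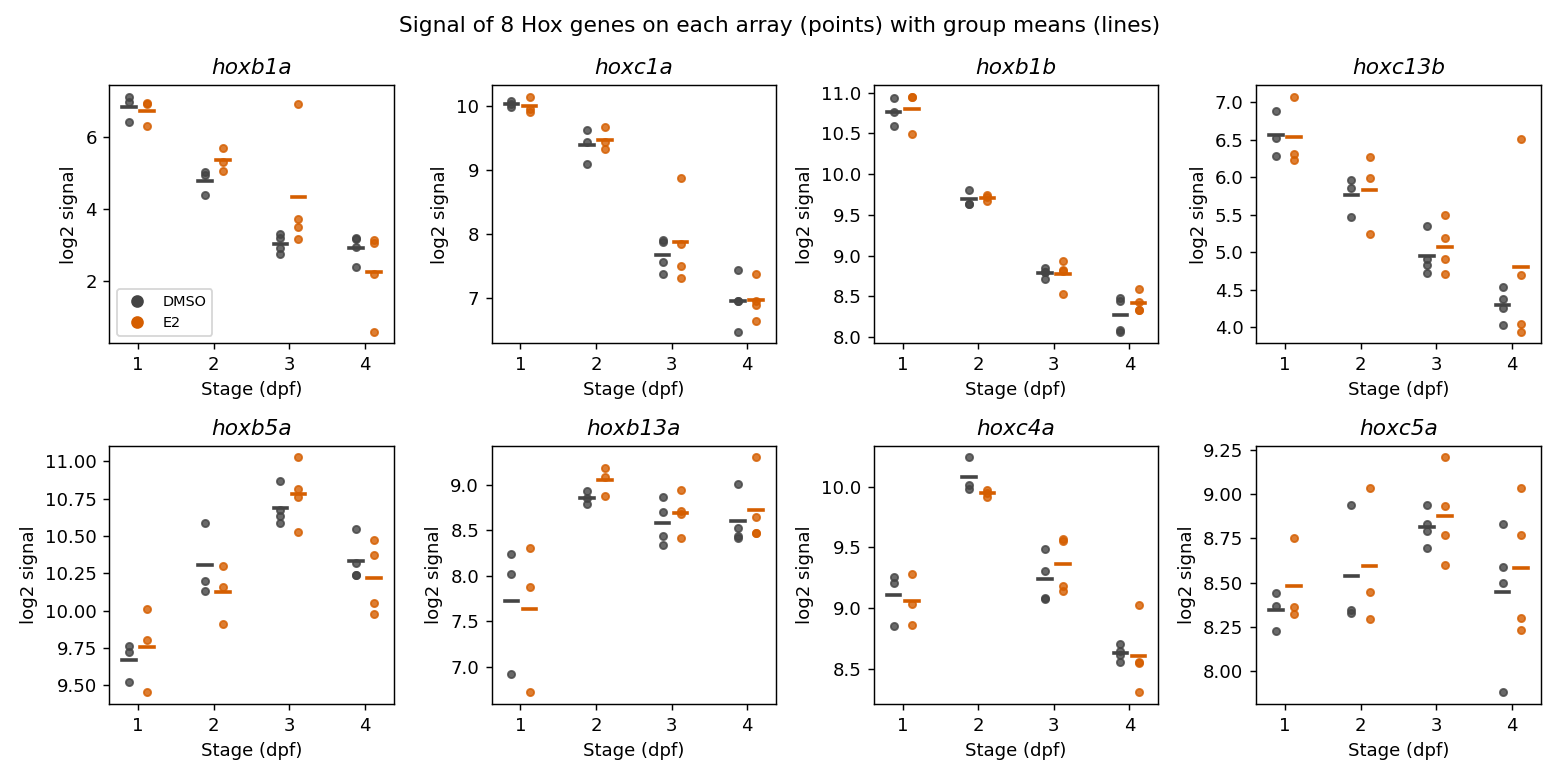
Log2 signal of 8 Hox genes on each of the 28 arrays (points) with group means (lines), by stage and treatment, DMSO in grey and E2 in orange. The hoxb1a, hoxc1a, hoxb1b and hoxc13b signals fall with stage, those of hoxb5a and hoxb13a are higher at 2 dpf than at 1 dpf, and hoxc4a has its highest values at 2 dpf. The point far above the rest at 3 dpf in the hoxb1a panel is E2 replicate 1.

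Paralogue groups 2, 3 and 4 pattern the hindbrain and, in the case of hoxa2b and hoxb2a, the neural crest of the pharyngeal arches. All 7 measured members fell between 1 and 4 dpf. Together with group 1 they make 11 of 11 genes that fell (27.1% of all probes), with a median of -1.51 and a range from -3.87 to -0.44. The median change was -1.52 in group 2 (2 genes), -1.16 in group 3 (2 genes) and -0.95 in group 4 (3 genes). Of these 11 genes 2 fell from 1 to 2 dpf, 9 from 2 to 3 dpf and 9 from 3 to 4 dpf, beside 12.8%, 7.29% and 6.14% of all probes. Whether paralogue groups differed in timing was not tested.

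Within these groups hoxc4a had a profile with a peak. From signals of 9.21, 9.25 and 8.85 at 1 dpf it went to 10.02, 10.24 and 9.98 at 2 dpf. The 3 dpf arrays gave 9.31, 9.49, 9.08 and 9.07, followed by 8.56, 8.71, 8.62 and 8.65 at 4 dpf. Values at 2 dpf lay above all others and those at 4 dpf below all others. It rose by 0.97 from 1 to 2 dpf and then fell by 0.81 and by 0.61, and the change from 1 to 4 dpf was -0.44 (SE 0.14, adjusted p 0.0114 in limma). Without DMSO replicate 1 of 1 dpf the last value was -0.38 (adjusted p 0.0621). Both other probes of hoxc4a were also lower at 4 than at 1 dpf (-0.67 and -0.58).

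Paralogue groups 5 to 8 pattern the level of the pectoral fins and the trunk, and hoxb5a and hoxb5b are expressed in the hindbrain and the spinal cord. Of 9 measured genes 6 fell and 1 rose between 1 and 4 dpf (27.1% and 20% of all probes), with a median of -0.46. The gene that rose was hoxb5a. For it the 1 dpf DMSO arrays gave 9.73, 9.76 and 9.52, the 2 dpf arrays 10.13, 10.59 and 10.20, the 3 dpf arrays 10.67, 10.87, 10.63 and 10.59, and the 4 dpf arrays 10.24, 10.55, 10.32 and 10.24. All values after 1 dpf lay above all values at 1 dpf. The change was 0.72 (SE 0.14, adjusted p 2.07e-04 in limma), made up of 0.64, 0.44 and -0.35 over the 3 intervals, the last of which did not pass the test. The 0.44 was the only rise called from 2 to 3 dpf. That call was lost under 75th percentile scaling, normexp correction and without the replicate block, and without any of 6 single arrays. Its other probe gave 0.54 (adjusted p 0.00121).

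The neighbour of hoxb5a in the cluster, hoxb6a, fell by 1.51 (SE 0.18), from 9.81, 9.43 and 9.26 at 1 dpf to 8.03, 7.94, 7.93 and 8.01 at 4 dpf. For hoxc5a the change was 0.13 (SE 0.20, adjusted p 0.670 in limma), and groups at 1 and 4 dpf overlapped. The other gene of these groups that did not pass was hoxc8a (-0.39, SE 0.16, adjusted p 0.0569), for which both other probes gave -0.68 and -0.74, with adjusted p of 0.00849 and 0.0017. The main probe of hoxa5a fell by 0.67 (adjusted p 0.0116), and its other probe gave -0.10 (adjusted p 0.621). Without DMSO replicate 3 of 1 dpf the change of hoxa5a was -0.52 (adjusted p 0.0859).

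Paralogue groups 9 to 13 pattern the posterior trunk, the tail and the fin buds. Of 16 measured genes 12 fell and 1 rose between 1 and 4 dpf (27.1% and 20% of all probes). Their median was -1.26, or -1.0 with hoxb9a at its bound. The changes of hoxa9a, hoxa9b and hoxc9a were -1.85, -1.39 and -1.13, and those of hoxa11a, hoxa11b and hoxc11a were -2.23, -1.41 and -0.57, all past the test. The call of hoxc11a was lost without any of 5 single DMSO arrays, all 3 of 1 dpf and replicates 2 and 3 of 4 dpf, with values between -0.61 and -0.39. With all arrays its other probes gave -0.68 (adjusted p 0.00323 in limma) and -0.57 (adjusted p 0.19). The call of hoxa10b (-0.51) was lost without DMSO replicate 2 of 4 dpf (-0.40, adjusted p 0.0504). With all arrays the other probes of hoxa10b gave -0.88, -0.90 and -0.59, with adjusted p of 0.000373, 0.000245 and 0.0102 in limma.

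Signals of hoxb9a were well above background on 5 of 28 arrays, and on 0 of 4 DMSO arrays at 4 dpf. Its DMSO signals were 3.35, 2.21 and 1.84 at 1 dpf, where 1 of 3 arrays was well above background, against 0.72, 0.67, 0.73 and 0.73 at 4 dpf. It is counted among the 36 genes with its fitted value, which did not pass the test, and no fold change is given for it.

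Paralogue group 13, whose genes mark the end of the body axis and the distal fin, had the widest range among the 12 measured paralogue groups. It also had the most members, and a range grows with their number. Its 6 members gave -2.36 (hoxc13b), -1.77 (hoxd13a), -0.88 (hoxc13a), -0.69 (hoxa13a), -0.17 (hoxa13b) and 0.91 (hoxb13a), and those of hoxa13a and hoxa13b did not pass the test. For hoxa13b the sign depended on the scaling, with 0.13 when each array was scaled by its 75th percentile. The 1 dpf DMSO arrays of hoxc13b gave 6.52, 6.88 and 6.28, the 2 dpf arrays 5.85, 5.96 and 5.48, the 3 dpf arrays 4.91, 5.35, 4.72 and 4.82, and the 4 dpf arrays 4.38, 4.54, 4.03 and 4.26. No stage overlapped the stage before it, and the SE of the change of hoxc13b was 0.38 (adjusted p 3.4e-05 in limma).

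For hoxb13a the 1 dpf DMSO arrays gave 6.92, 8.24 and 8.02, the 2 dpf arrays 8.93, 8.85 and 8.79, the 3 dpf arrays 8.87, 8.70, 8.34 and 8.44, and the 4 dpf arrays 9.01, 8.42, 8.44 and 8.52. Replicate 1 was the lowest array at 1 dpf and the highest at 3 and 4 dpf. The change from 1 to 4 dpf was 0.91 (SE 0.33, adjusted p 0.0296 in limma), and the rise from 1 to 2 dpf was 1.13. The call rested on single arrays: without DMSO replicate 1 of 1 dpf the change was 0.47 (adjusted p 0.292), and without DMSO replicate 1 of 4 dpf it was 0.74 (adjusted p 0.107). The other probe of hoxb13a gave 0.40 (adjusted p 0.473).

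Across the 36 genes Spearman's rho between paralogue number and the change from 1 to 4 dpf was 0.22, given as a description over genes that share their arrays. By cluster the medians lay at -1.45 (hoxaa), -1.39 (hoxab), -1.39 (hoxba), -1.46 (hoxbb), -1.57 (hoxcb) and -1.29 (hoxda), and at -0.52 in hoxca. The hoxba median counts hoxb9a with its fitted value rather than at its bound, which lowers that median. The hoxca cluster held genes at both ends of its own range, from hoxc1a (-3.00) to hoxc5a (0.13). Other probes, 30 in all for 21 genes, had the sign of the main probe in 30 of 30 cases. At an adjusted p under 0.05 in limma 21 were lower and 1 was higher, against 27.1% and 20% of all probes. The largest difference between a main probe and another probe was 0.57 (hoxa5a).

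The arrays had been scanned in 3 batches, which held 12, 4 and 12 arrays. Within the batches of 12 arrays, each with 1 or 2 DMSO arrays per stage, the median Hox change from 1 to 4 dpf was -1.28 and -1.20. All 31 genes called between 1 and 4 dpf had the same sign as in the whole data in both batches. They were called with these same arrays (7 and 6 DMSO arrays in the batches of 12), so this agreement was largely given in advance. It does not show whether scan batch mattered. The batch of 4 held 1 DMSO array and 3 E2 arrays and gave no value.

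For 7 genes both the a copy and the b copy had a probe. The difference between their changes from 1 to 4 dpf was tested over the pools of both treatments, by a two-sided exact permutation of stage within treatment over 1225 arrangements, the smallest possible p being 0.000816. The p-values of the 7 tests were not adjusted. This permutation treats the DMSO and E2 pools as separate, although pools of the same replicate number deviated together. A second permutation, added after seeing the data, kept both pools of a number together as 1 unit (3 at 1 dpf and 4 at 4 dpf, 35 arrangements, smallest possible p 0.0286). At hoxb5 one copy rose and the other fell: hoxb5a rose by 0.72 in DMSO embryos and hoxb5b fell by 0.46, and the difference over both treatments was 1.13 (p 0.00163 in the exact test, and 0.0571 with pools kept together). The signals of hoxb5b were 9.33, 9.23 and 8.84 at 1 dpf and 9.09, 8.56, 8.32 and 8.29 at 4 dpf, so that its stages overlapped where those of hoxb5a did not.

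At hoxc6 both copies fell, hoxc6a by 0.46 and hoxc6b by 1.57, with a difference of 1.46 (p 0.00163 in the exact test, and 0.0571 with pools kept together). The signals of hoxc6b were 8.08, 7.95 and 7.21 at 1 dpf and 6.39, 6.19, 5.56 and 5.75 at 4 dpf, without overlap. Those of hoxc6a were 9.35, 8.97 and 8.86 at 1 dpf and 8.99, 8.29, 8.59 and 8.38 at 4 dpf, with overlap. The other probe of hoxc6a gave -0.24 (adjusted p 0.304 in limma). At hoxa9 the difference was -0.48 (p 0.0147 in the exact test, and 0.0857 with pools kept together). None of these 3 differences passed the limit of 0.05 when the pools were kept together.

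The other 4 pairs depended on the treatment of the background. After the normexp correction the difference was 0.50 in place of -1.02 at hoxa11, 0.72 in place of -1.76 at hoxb1, -0.12 in place of 1.00 at hoxc13 and -0.25 in place of -0.66 at hoxa13. Without that correction the exact p was 0.000816, 0.000816, 0.0547 and 0.00735 in this order, and after the correction 0.00245, 0.000816, 0.751 and 0.0531. With pools kept together, without that correction, the exact p was 0.0286 at hoxa11, hoxb1 and hoxa13 and 0.143 at hoxc13. The offset added by that correction shrinks the changes of dim probes, and the DMSO signals at 4 dpf were at most 3.81 for hoxa11a, 3.19 for hoxb1a and 4.54 for hoxc13b. The change of hoxa11a went from -2.23 to -0.66. Which copy of these 3 genes fell further is therefore not settled here. At hoxc13 the value was 1.37 (p 0.00143 in the exact test) without E2 replicate 4 of 4 dpf, on which hoxc13b stood at 6.50 against 3.94 to 4.70 on the other E2 arrays of that stage.

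**Figure D4:**
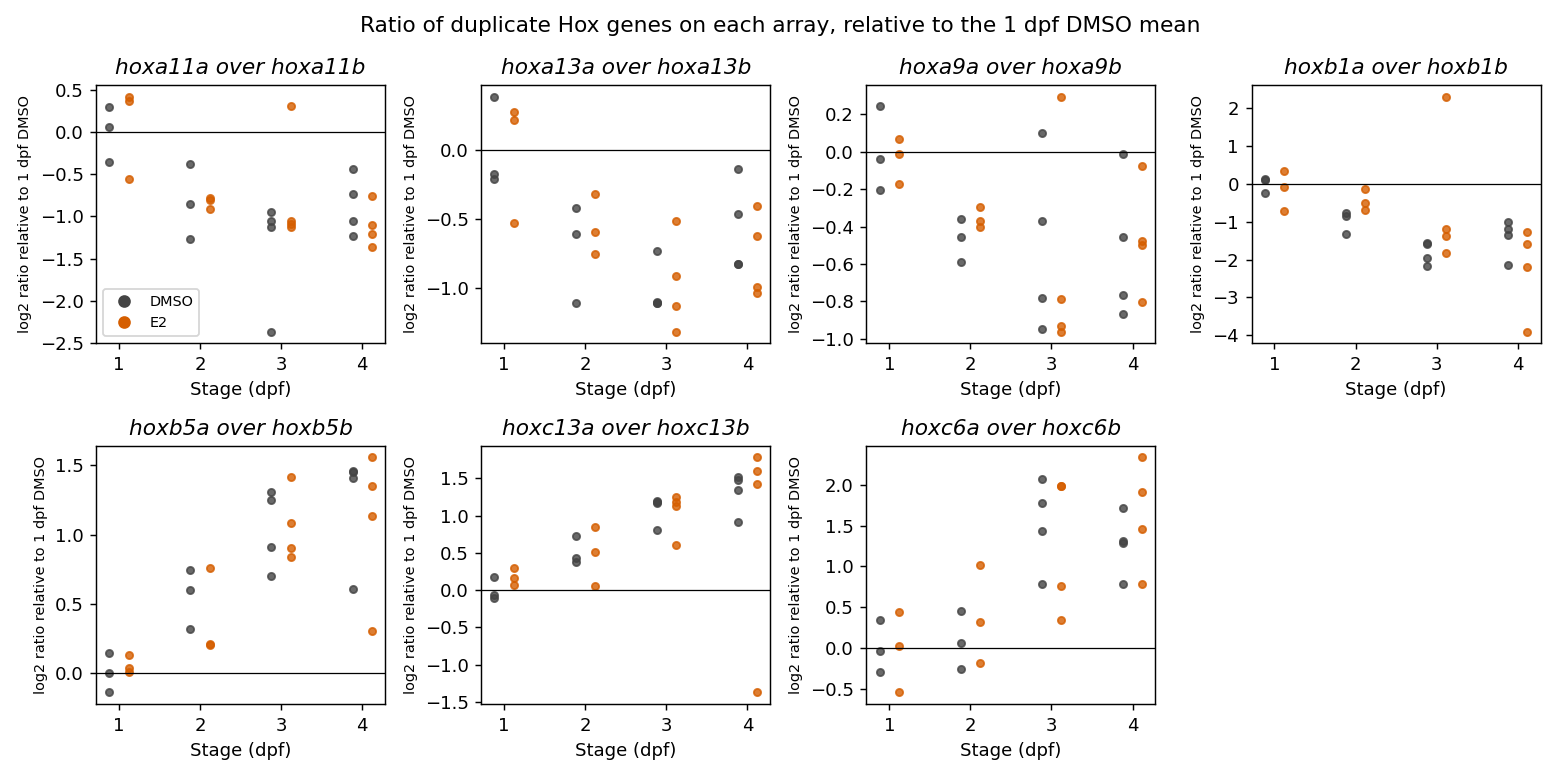
Log2 ratio of the a copy over the b copy on each of the 28 arrays for 7 duplicate pairs, relative to the mean of the 1 dpf DMSO arrays, by stage (dpf), DMSO in grey and E2 in orange. The hoxb5 and hoxc6 ratios lie mostly higher at 3 and 4 dpf than at 1 dpf in both treatments. In DMSO the hoxc6 ratio does not rise further from 3 to 4 dpf. The ratios of hoxa11, hoxa13 and hoxb1 lie mostly below 0 after 1 dpf, and for hoxa11, hoxb1 and hoxc13 the sign of the change depended on the background correction.

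The question of the study, whether E2 changes expression, gave none of the 36 named Hox genes past the study's thresholds. At 1, 2, 3 and 4 dpf 0 of 36 genes passed both of them, where 0.406%, 0.229%, 0.766% and 0.493% of all probes did. By the adjusted p alone 0 of 36 passed at each stage as well, beside 0%, 0.00688%, 0.0321% and 0.0871% of all probes. In limma 2 of the 144 comparisons of Hox genes had an unadjusted p under 0.05, both at 3 dpf, and 0 at 1, 2 and 4 dpf. That share of all probes was 1.81%, 1.32%, 6.3% and 2.79%, which at 1, 2 and 4 dpf is less than chance alone would give, so the counts of 0 do not show that E2 left these genes unaltered.

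A probe that only the study's own list names as hoxd12a, and which is not counted among the 36 genes, did pass both thresholds at 1 dpf (unadjusted p 0.00296, adjusted p 1 in limma). Its E2 signals at 1 dpf were 3.1, 3.65 and 1.84 and its DMSO signals 2.78, 0.53 and 0.72. The groups overlapped, and 1 of 3 E2 arrays and 0 of 3 DMSO arrays were well above background, so no fold change is given for it. Probes that this list alone names as hoxc12a, hoxb1a and hoxb4a did not pass both thresholds at any stage. At 3 dpf their changes with E2 were 0.50, 0.85 and 0.61. The unadjusted p in limma was 0.0167, 0.0281 and 0.0587, and the adjusted p was 0.654 for each. E2 replicate 1 was the highest of their E2 arrays at 3 dpf (6.48, 6.73 and 6.10).

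The fitted changes of the Hox genes with E2 were mostly small. Their medians were 0.08, 0.02, 0.10 and 0.04 at the 4 stages, and the lowest values were -0.16, -0.18, -0.19 and -0.67. Leaving out hoxb9a, which is near background, the highest were 0.31 (hoxc12b), 0.57 (hoxb1a), 1.29 (hoxb1a) and 0.50 (hoxc13b). The -0.67 at 4 dpf was that of hoxb1a, with E2 signals of 3.06, 0.59, 3.13 and 2.20, of which 2 of 4 were well above background. For the 0.50 of hoxc13b, E2 replicate 4 stood at 6.50 and the other E2 arrays at 3.94 to 4.70. That array had the lowest share of spots well above background (58.1%) and the most outlier spots (529). The median 95% interval reached 0.39 to either side at 1 and 2 dpf and 0.34 at 3 and 4 dpf. The 95% interval lay within a change of 1 in either direction for 32, 32, 33 and 33 of 36 genes, and within a 1.4-fold change for 17, 20, 20 and 25 genes. The replicate block is common to all stages, so these intervals and the p-values do not use the pairing of DMSO and E2 pools within a stage.

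Among the counted Hox genes both comparisons with an unadjusted p under 0.05 rested on E2 replicate 1 of 3 dpf. For hoxb6a the DMSO signals at 3 dpf were 8.31, 8.30, 8.37 and 8.32 and the E2 signals 9.52, 8.32, 8.48 and 8.51. Replicate 1 stood far above the other E2 arrays, and the groups overlapped. The change was 0.39 (SE 0.16, adjusted p 0.654 in limma), higher in 4 of 4 pairs, and it was 0.17 without that array. Without E2 replicate 2 of 3 dpf hoxb6a was 0.49 and passed both study thresholds.

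The same array set the value of hoxb1a at 3 dpf. The DMSO signals were 2.74, 2.90, 3.30 and 3.20 and the E2 signals 6.90, 3.16, 3.71 and 3.50, so that replicate 1 lay in the range of the 1 dpf arrays, 6.30 to 7.11. The change of hoxb1a was 1.29 (SE 0.56, adjusted p 0.654 in limma), higher in 4 of 4 pairs, and 0.45 without that array. For hoxb9a the E2 signals were 7.79, 0.95, 1.11 and 1.95 against 0.82, 1.70, 1.06 and 0.66 with DMSO. Of these arrays E2 replicate 1 alone was well above background, and no fold change is given.

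On E2 replicate 1 of 3 dpf 17 of 36 Hox genes lay above the other 7 arrays of that stage and 3 lay below them. Of all probes 29.2% lay above and 34.5% below. With all arrays 31 of 36 Hox genes were higher with E2 at 3 dpf, and without this array 23 were, with a median change of 0.05 and a range from -0.17 to 0.45. At 3 dpf 5 genes were lower with all arrays, beside 53.5% of all probes. At 1, 2 and 4 dpf 9, 13 and 11 of 36 genes were lower, beside 46%, 48% and 50.8% of all probes. The direction of these small values was not the same in the scan batches. At 4 dpf, in the batches of 12 arrays, 30 genes were higher in the first (1 E2 and 2 DMSO arrays, median 0.26). In the other, 29 were lower (2 of each, median -0.09). At every stage the DMSO and E2 arrays of replicate 2 were scanned in different batches. In that replicate E2 and scan batch cannot be told apart, and the replicate block does not remove this.

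**Figure D5:**
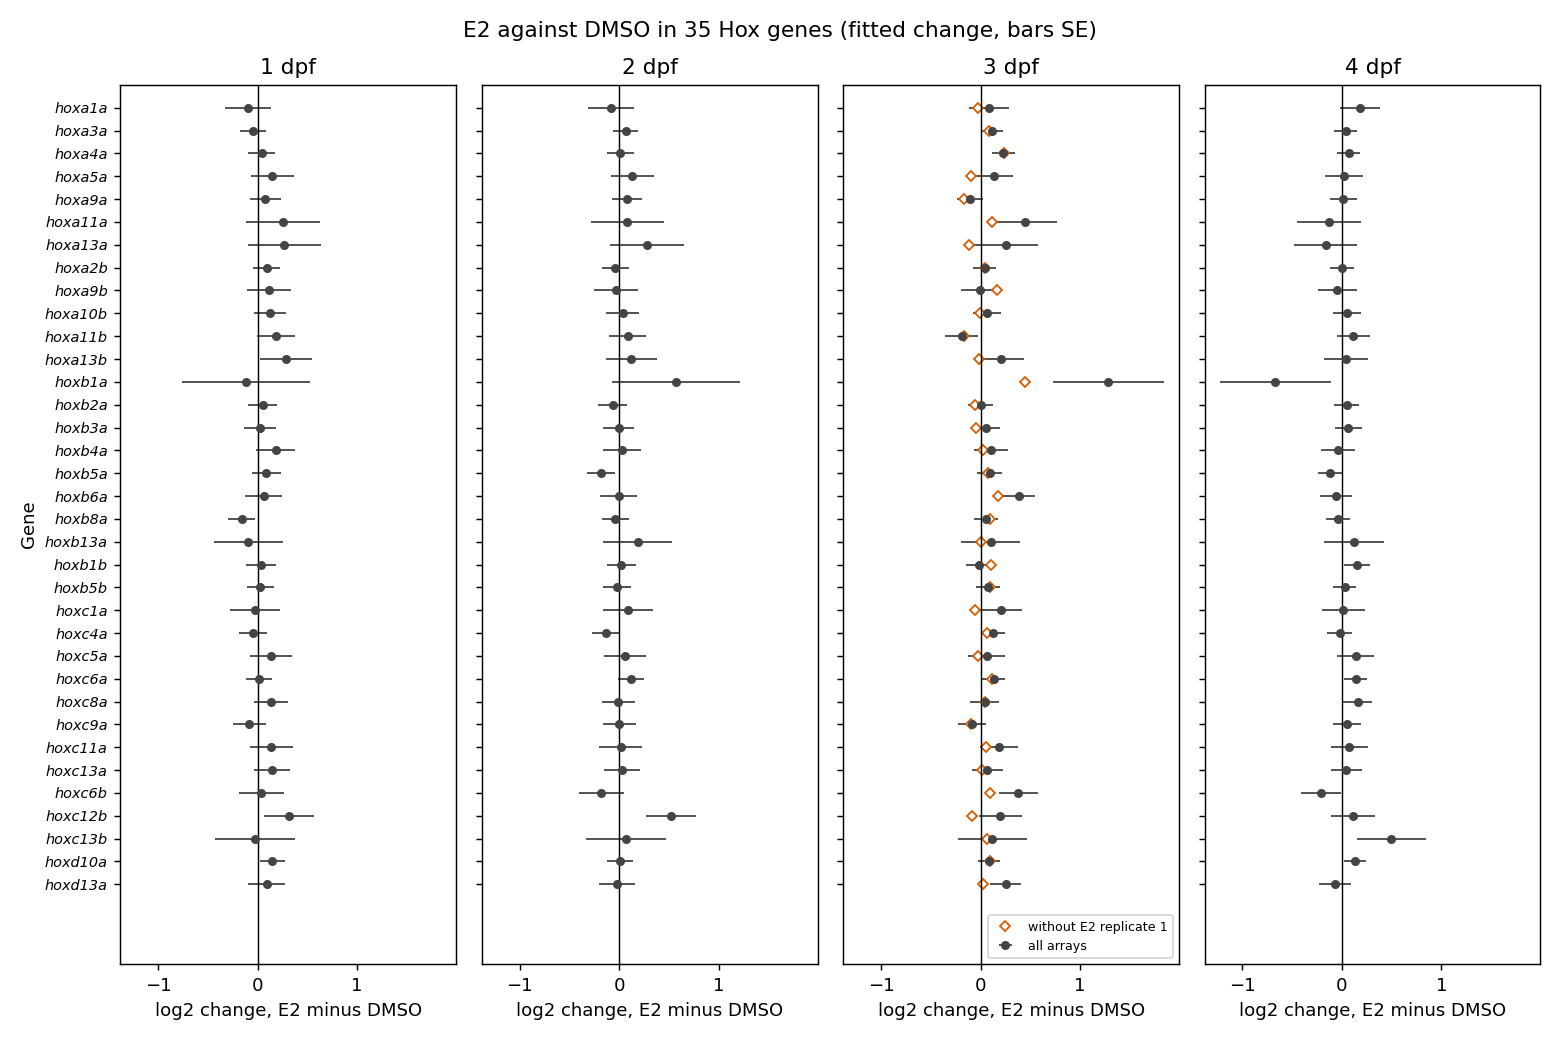
Fitted log2 change with E2 of 35 Hox genes (hoxb9a, near background, is left out) at 1, 2, 3 and 4 dpf, with SE as bars. Open diamonds at 3 dpf give the change without E2 replicate 1 of that stage. Most points lie near 0 with bars that cross it, and the point of hoxb1a at 3 dpf moves from 1.29 to 0.45 without that array.

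A difference in the effect of E2 between stages, tested with the stage-by-E2 terms in limma, was found for 0 of 36 Hox genes, beside 0.0734% of all probes. In E2 embryos 30 genes fell and 2 rose from 1 to 4 dpf (28.9% and 19.8% of all probes), and 31 genes were called in both treatments. The median was -1.15, and the sign was that of the DMSO embryos in 36 of 36 genes. The shares of all probes called in both treatments, or with the same sign in both, were not computed. Whether this agreement is particular to the Hox genes was thus not tested. Across the 36 genes, which share probes and scaling, Pearson's r between both sets of changes was 0.980 and Spearman's rho was 0.980. The median absolute difference was 0.12 and the largest was 0.56 (hoxb1a).

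Genes that act with or upstream of the Hox genes were measured on the same arrays, from lists chosen with earlier results of these data known. The Hox proteins bind DNA together with cofactors of the Pbx, Meis and Pknox families. Of 12 measured cofactor genes 3 fell (27.1% of all probes) and 4 rose (20%) between 1 and 4 dpf in DMSO embryos, with a median of -0.10. The changes were -1.52 for meis3, -1.22 for pbx4 and -0.69 for meis1a, and 3.38 for pbx3b, 1.46 for pbx1a, 0.94 for pknox2 and 0.49 for meis2a.

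Regulators of Hox expression include the Cdx factors, the enzymes and receptors of retinoic acid, and the Fgf, Wnt and Gdf11 signals of the tail bud. Of 15 measured genes 8 fell and 2 rose (27.1% and 20% of all probes), with a median of -0.51. The posterior factor cdx4 fell by 5.35, with 3 of 4 arrays at 4 dpf well above background, and cyp26c1 and cyp26a1, which break down retinoic acid, fell by 2.05 and 1.33. The signal genes fgf8a, wnt3a and gdf11 fell by 1.89, 1.79 and 1.64, and egr2b, a regulator of rhombomeres 3 and 5, fell by 1.11. The synthesis enzyme gene aldh1a2 changed by 0.13 (adjusted p 0.321 in limma). Of the genes that rose, cdx1b was at background on all 1 dpf DMSO arrays and was at least 13.1-fold higher at 4 dpf, and cdx1a rose by 1.85 (adjusted p 0.0451).

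Polycomb and trithorax proteins keep Hox genes off or on. Of 10 measured genes 5 fell and 1 rose (27.1% and 20% of all probes), with a median of -0.29: cbx2, suz12a, ezh2, bmi1a and rnf2 fell by 1.64, 1.63, 1.53, 1.22 and 0.35, and cbx8a rose by 1.02. Of the 5 ParaHox and even-skipped genes, relatives of the Hox genes, gsx2, gsx1, eve1 and evx1 fell by 2.82, 1.62, 1.52 and 0.96, and pdx1, which acts in the pancreas, rose by 0.91, beside the same shares of all probes. For gsx2 1 of 4 arrays at 4 dpf was well above background. With E2, 0 genes of these 4 lists passed the study's thresholds at any stage.

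Markers of cell populations moved with stage beside the Hox genes. The tail bud list shares fgf8a and wnt3a, and the hindbrain list egr2b and mafba, with the regulators above. Of 7 tail bud markers 7 fell (27.1% of all probes), from 1.79 (wnt3a) to 5.70 (tbx16). For tbx16, tbx6 and her7 2 of 4 DMSO arrays at 4 dpf were well above background, and her1 was at background on all 4 dpf DMSO arrays, at least 3.45-fold lower than at 1 dpf. The summed signal of the 7 genes on the log2 scale ranged on the DMSO arrays from 10.63 to 11.61 at 1 dpf, from 9.35 to 9.46 at 2 dpf, from 8.56 to 9.06 at 3 dpf and from 7.82 to 8.38 at 4 dpf. In fin bud, hindbrain, neuron and muscle lists 2 of 3, 0 of 2, 2 of 4 and 2 of 3 genes rose (20% of all probes). In the same order 0 of 3, 1 of 2, 1 of 4 and 1 of 3 fell. Of 2 erythroid genes 1 fell and 0 rose. The hatching gland gene he1.1 fell and the liver gene fabp10a rose by 9.90. For he1.1 1 of 4 DMSO arrays at 4 dpf was well above background, so the size of its fall is not given. The part of these populations in the Hox values was not tested. With E2, fabp10a fell past the study's thresholds at 2 and 3 dpf, and 0 other genes of the marker lists passed them.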

How the data were processed

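The deposited values are spot intensities (processed signals, linear scale), which the scanner software had corrected for background and for a spatial trend but which were not scaled between arrays. The table of the series held the same values (1266160 of 1266160 equal). The files' headers name Agilent Feature Extraction 10.7.3.1, and the submitters' processing notes name 11.0.1.1. From the deposited intensities log2 values were computed here. Control spots and outlier spots (3 to 529 per array, median 9) were removed, quantile normalization was applied to log2 signals, and replicate spots were averaged per probe. The fold changes and p-values in the study's own list were not used, and its probe names were used only to describe a few probes that are not counted.

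Probes were named through RefSeq accessions, of which 15163 of 19212 matched GRCz12tu (10536 genes). Members and gene lists were chosen with earlier results of these data known. Group means and the replicate number (4 levels) were fitted in limma 3.58.1 under R 4.3.3 to all 28 arrays, as the study's methods remove replicate effects, and p-values were adjusted over 43603 probes. Arrays of a stage with the same replicate number deviated together. Pearson's r over probes exceeded 0.1 in 14 of 14 pairs of DMSO and E2 arrays (0.175 to 0.649, median 0.319). The median between different numbers was -0.204, a value that is pushed down by centring each group on its own mean. Except for replicate 2, both arrays of such a pair also shared a slide and a scan batch. Whether they deviated together through their pools or through their slides was not tested. Residual degrees of freedom were 17. Single values are given for each array for paralogue group 1, the genes with the largest called falls (4) and rises between 1 and 4 dpf, and duplicate pairs; others are given by range. The hoxc4a, hoxb6a, hoxb9a and hoxc5a genes were added after their values were seen. At least-fold values, and the bound of hoxb9a in medians, raise a dim group to the lowest signal that was well above background on the same array. The number of arrays limits precision. The fit was tested on simulated data, but the outcome is not given here and no result rests on it. Alternatives were 75th percentile scaling, normexp correction with an offset of 50 on the median signal (the files hold no mean signal), a filter on dim probes, the replicate block left out or set within stages, scan batch or slide as block, array weights, each stage alone, the mean of all probes, the DMSO and E2 pools of a number permuted together, and each array left out. Figures were drawn with matplotlib 3.10.9 from tables made in Python 3.11.15 (pandas 2.3.3).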

Additional observations from a re-analysis of the deposited data

Results flagged for a closer look

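In 144 sets of arrays (36 genes in the 4 groups of 4 arrays), 7 had a highest or lowest array far from the other 3, and chance flags about 1 in 20 such sets. Of these 4 were E2 replicate 1 of 3 dpf, which stood at 5.33 for hoxa11a (others 3.96 to 4.03), 6.90 for hoxb1a (3.16 to 3.71), 9.52 for hoxb6a (8.32 to 8.51) and 7.79 for hoxb9a (0.95 to 1.95). In DMSO embryos of 4 dpf replicate 1 was high for hoxa1a (4.99, others 4.33 to 4.43) and low for hoxa4a (9.10, others 9.32 to 9.35). The last was hoxb9a on DMSO replicate 2 of 4 dpf (0.67, others 0.72 to 0.73), where no array was well above background.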

How the results depend on the processing

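Between 1 and 4 dpf the median Hox change was -1.26, -1.25 and -0.86 with quantile normalization, 75th percentile scaling and normexp correction, and relative to the median of all probes it was -1.10, -1.32 and -0.82. The 75th percentile scaling moved the median of all probes from -0.16 to 0.07, and at 3 dpf with E2 from -0.02 to 0.24. The number of genes that rose from 2 to 3 dpf was 0 under 75th percentile scaling, normexp correction and without the replicate block. Without the replicate block 11 genes fell from 3 to 4 dpf, and under normexp correction 13 fell from 1 to 2 dpf. The mean of all probes left 1 gene that rose from 1 to 4 dpf. The change of hoxa13b was 0.13 under 75th percentile scaling. Under normexp correction the duplicate differences were 0.50 (hoxa11), 0.72 (hoxb1), -0.12 (hoxc13) and -0.25 (hoxa13). When each array was left out, the count that differed between stages lay between 27 and 31, and that from 1 to 4 dpf between 27 and 31 lower and 1 and 2 higher. From 1 to 2 dpf it lay between 5 and 11 lower and 2 and 3 higher, from 2 to 3 dpf between 9 and 16 lower and 0 and 1 higher, and from 3 to 4 dpf between 11 and 20 lower, with 0 higher. The 11, 16, 31 and 20 were all reached without E2 replicate 1 of 3 dpf. With E2 the count was 0 at 1, 2 and 4 dpf and between 0 and 1 at 3 dpf, and 0 for the difference between stages. With the DMSO and E2 pools of a replicate number permuted together (a replicate block for the duplicate pairs, added after seeing the data) the differences of -0.48 (hoxa9), 1.13 (hoxb5) and 1.46 (hoxc6) had p of 0.0857, 0.0571 and 0.0571 in the exact test and no longer passed. When arrays were left out, the duplicate differences lay between -1.18 and -0.94 (hoxa11), -0.79 and -0.56 (hoxa13), -0.56 and -0.41 (hoxa9), -1.92 and -1.48 (hoxb1), 1.05 and 1.26 (hoxb5), 0.84 and 1.37 (hoxc13), and 1.33 and 1.60 (hoxc6). Apart from the arrays left out and the values above, the remaining 135 summary values under the alternatives stayed on their side. Of the values outside this summary, which include those of single genes, 294 stayed. Of the others 7 became stronger, 5 became weaker and 1 changed sign (hoxa13b). The causes of the moves were not tested. The normexp setting was chosen after seeing the data, and low signals near background limit hoxb9a, hoxb1a, hoxa11a and hoxc13b.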
